A study of Mus musculus with 24 samples.

Results

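The transcripts described here are those of protein-coding genes of the mouse mitochondrial genome that encode subunits of the respiratory chain and ATP synthase. A list of 10 such genes was chosen by name (ND1, ND2, ND4, ND5, ND6, COX1, COX2, COX3, CYTB and ATP6), and the table of the study was searched for entries that carried one of these symbols, the Ensembl entry with the highest mean RPKM serving as the main one. RPKM are reads scaled to transcript length and to the mapped reads of a library. Only 5 of the 10 names occurred as symbols, on 36 of 168326 entries. By their Ensembl transcript identifiers, 8 of the 10 genes were found, since ND1 and ND2 stood under their bare identifiers (ENSMUST00000082392 and ENSMUST00000082396), ND4 (ENSMUST00000082414) stood under the symbol ND4L, and ATP6 (ENSMUST00000082408) stood under the symbol COX3. The entry that the symbol COX3 selected on its highest mean was therefore the annotated ATP6 transcript and is called ATP6 below. The annotated Ensembl transcripts of COX3 and CYTB were not analysed here, and for COX3 the entry AK131579, of the same length as its annotated transcript, is described among the other entries. The other main entries were ENSMUST00000082418 for ND5, ENSMUST00000082419 for ND6, ENSMUST00000082402 for COX1 and ENSMUST00000082405 for COX2. ND5 and COX1 were proposed with their difference in knockdown effect between the times already known, so every change of ND5 and COX1 is given below as a description without a p-value, and the tests concern the other 6 genes.

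The cells were primary brite adipocytes, the heat-producing fat cells that arise within white fat. Their precursors came from the stromal-vascular cells of inguinal white fat of 129SvEv mice, and all 4 groups received rosiglitazone, an agonist of PPARγ that promotes browning. KD cells were reverse transfected at 50 nM with LNA gapmers, antisense oligonucleotides that direct the cleavage of their target RNA, against the long noncoding RNA Ctcflos, and NC cells received a gapmer without a target. Libraries of 3′ cDNA ends were made 24 h or 72 h later, with 6 libraries in each of the groups NC 24 h, KD 24 h, NC 72 h and KD 72 h. The study describes its transcriptome samples as biological replicates and concentrated that work on the Ctcflos transcript tr1. The labels name neither the gapmer nor the culture or animal of a library, so p-values measure the spread between these libraries, whatever its source.

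The RPKM steps implied 1391832 to 5926375 mapped reads per library. NC 72 h replicates 2 and 3 differed by 0.341 of the counting noise, against 2.00 or more for every other pair of libraries, and were averaged as 1 sample, so that NC 72 h had n = 5 and all other groups n = 6. KD 24 h replicate 6 was the shallowest library. Deviations of 6256 nuclear genes from their group means split the libraries into a cluster of 16 and a cluster of 8, the smaller holding 2 libraries of every group (NC 24 h replicates 5 and 6, KD 24 h replicates 3 and 4, NC 72 h replicates 4 and 5, KD 72 h replicates 5 and 6). The labels name no batch that matches these clusters, so values are also given within them. The targeted RNA was counted at only 0 to 29 reads per library on any of its entries. Its entry AK079954 averaged 1.63 ± 0.893 RPKM (SD, n = 6) in NC and 0.218 ± 0.322 (n = 6) in KD at 24 h, and 2.61 ± 0.862 (n = 5) in NC and 0.344 ± 0.409 (n = 6) in KD at 72 h. The entry AK041254, which the study names as tr1, averaged 0.430 ± 0.248 RPKM in NC and 0.255 ± 0.401 in KD at 24 h, and 1.48 ± 0.997 in NC and 0.124 ± 0.216 in KD at 72 h, with at most 17 reads in a library. Both entries were too low for the fits and were not tested. Defining markers of fat cells were present, with Fabp4, the adipocyte fatty acid carrier, and Adipoq, the hormone adiponectin, at means of 37030 and 1997 RPKM over all libraries, and the 4 endothelial markers summed to at most 2.64 RPKM.

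Mitochondrial DNA is read from a promoter on each strand into long RNAs that are cut at the tRNAs between the genes, so genes of 1 strand start from a shared precursor and their final levels depend on processing and decay. ND1, ND2, ND4, ND5 and ND6 encode subunits of the proton-pumping membrane arm of complex I, which takes electrons from NADH. COX1 and COX2 encode the catalytic core of complex IV, which reduces oxygen. ATP6 encodes the proton channel subunit of ATP synthase, complex V. Brite adipocytes are known for many mitochondria and for uncoupled respiration through UCP1, which dissipates the proton gradient that the respiratory chain builds.

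In the GENCODE M21 annotation of GRCm38, ND1 lies at chrM:2751-3707, ND2 at chrM:3914-4951, COX1 at chrM:5328-6872, COX2 at chrM:7013-7696, ATP6 at chrM:7927-8607, ND4 at chrM:10167-11544 and ND5 at chrM:11742-13565. All of these are on the plus strand and are single, uninterrupted exons. ND6 lies at chrM:13552-14070 on the minus strand. The last 14 bases of ND5 and of ND6 are the same DNA read on opposite strands. Their 3′ ends are shown because the libraries were made from 3′ ends and the strand handling of the counting is not given in the sources used here, so that reads from ND6 and from RNA antisense to it cannot be told apart. Capitals mark the overlap at chrM:13552-13565.
ND5, last 40 bases: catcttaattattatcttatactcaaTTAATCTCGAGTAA
ND6, last 40 bases: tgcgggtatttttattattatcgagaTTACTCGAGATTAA

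Part of the mouse mitochondrial genome is also present as a copy in nuclear chromosome 1, annotated as a row of unprocessed pseudogenes within chr1:24611535-24616197, and ND2 and ND5 have shorter or more divergent copies, Gm13339 on chromosome 2 and Gm4076 on chromosome 13. Reads that match both cannot be assigned by sequence. Of all 50-base windows of a member, the share that also occurred in an annotated nuclear transcript was 0% for ND1 and ND6, 7.6% for ND5, 8.2% for ND2, 51.1% for COX1, 62.2% for ND4, 99.5% for ATP6 and 100% for COX2. In COX1 the copy Gm29216 starts at base 1054 of the transcript and differs at 6 of its 492 bases, T1056A, C1057T, A1059G, A1060G, C1062A and A1066T (counted from the first base of COX1, mitochondrial base first). The start of this stretch is shown for COX1 and for the nuclear copy, with the differing bases in capitals, as the only bases that tell the pair apart there.
COX1, bases 1054 to 1113: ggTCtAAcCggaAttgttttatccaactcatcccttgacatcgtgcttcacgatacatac
Gm29216, bases 1 to 60: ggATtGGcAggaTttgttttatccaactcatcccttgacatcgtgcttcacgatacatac
The first 60 bases of COX2 are shown beside those of its copy Gm28661 because the pair is identical over all 681 bases of the copy.
COX2, bases 1 to 60: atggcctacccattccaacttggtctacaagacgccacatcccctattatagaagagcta
Gm28661, bases 1 to 60: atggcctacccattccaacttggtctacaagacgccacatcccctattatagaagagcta
ATP6 was likewise identical to its copy Gm10925 over 678 bases. ND1 holds no window found in an annotated nuclear transcript, and its 3′ end is shown as an example. Nuclear sequence outside annotated transcripts was not searched.
ND1, last 60 bases: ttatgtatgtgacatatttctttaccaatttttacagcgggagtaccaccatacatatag

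The members differed widely in level per length. In libraries of 3′ ends, reads need not grow with transcript length, so the order by RPKM depends partly on the length divided by. A 306-base entry under the symbol ND4L held a mean of 12495 reads, or 9953 RPKM. The ND4 entry, with 1378 bases, held 13740 reads, or 2427 RPKM. RPKM ratios between members are therefore not ratios of transcript numbers. The mean over the 24 libraries was 10091 RPKM for ND1, 2427 for ND4, 1493 for ND6, 1310 for ND2, 436 for COX1, 266 for ND5, 6.99 for COX2 and 5.28 for ATP6. ND1 was above ND4 in all 23 samples, ND2 above COX1 in all 23, and ND5 above COX2 in all 23. Some neighbours in this order were not separated, with ND6 above ND2 in 16 of 23 samples, COX2 above ATP6 in 15 of 23, ND4 above ND6 in 22 of 23 and COX1 above ND5 in 22 of 23. In reads, the depth ranged from a median of 35848 per library for ND1 to 19 for COX2 and 14 for ATP6, with as few as 3 and 2 reads in a library, so changes of COX2 and ATP6 carry a large counting error. The 8 entries together took 0.864% to 2.26% of a library's reads, and ND1 alone held 48.0% to 66.1% of that sum.

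COX2 and ATP6 were low and shared nearly all their windows, counted over the whole transcript, with nuclear transcripts. In the plot of level against shared windows, the members with at most 62.2% of their windows shared averaged 266 RPKM or more, while COX2 and ATP6 averaged under 7. Other genes of the mitochondrial genome listed in the table were close to 0, ND3 with 98.0% of windows shared at a mean of 0.304 RPKM (above 0 in 9 of 24 libraries) and ND4L with 98.8% shared at 0.136 RPKM (4 of 24). ATP8, a subunit of ATP synthase with 0% shared, also averaged only 0.376 RPKM (5 of 24 libraries). ATP8 overlaps the start of ATP6 on the same strand. The entry of Gm10222, the nuclear copy of ND4L, was at 0 in all libraries. The share over whole transcripts does not describe the 3′ ends from which the libraries were made. In COX1 the last window absent from nuclear transcripts ended at base 1115 of 1545. Its 3′ end was thus fully shared, as in COX2, while COX1 averaged 436 RPKM. In ND4 the windows absent from nuclear transcripts lay at bases 828 to 1378, its 3′ end. The part of the counting in these levels was not tested.

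**Figure D1:**
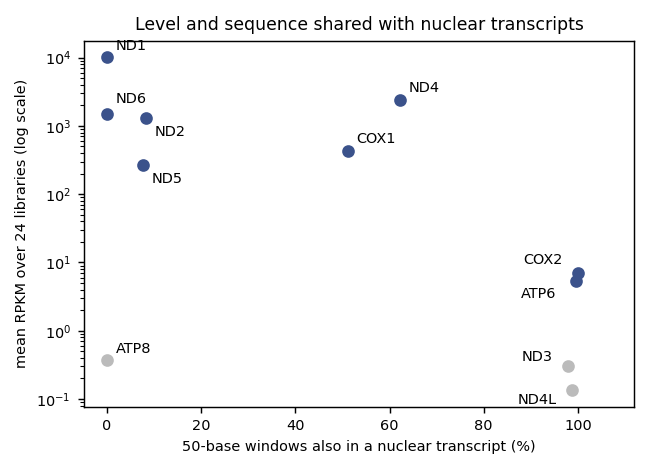
Mean deposited RPKM over 24 libraries (log axis) of each annotated mitochondrial transcript in the table against the share of its 50-base windows that also occur in an annotated nuclear transcript. Blue points are the 8 members and grey points ND3, ND4L and ATP8. COX2 (100% shared, 6.99 RPKM) and ATP6 (99.5% shared, 5.28 RPKM) stand far below the other 6 members, and ATP8 is low with 0% shared.

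The first comparison asked how the transcripts stood 24 h after KD. Every member had a lower fitted level in KD than in NC, and 3 of the 6 tested fell, the complex I subunits ND1 and ND4 and the complex IV subunit COX2. Levels below are deposited RPKM, given as lowest, median and highest for each group. ND1 was at 11311, 12281 and 15410 in NC 24 h and at 6687, 8375 and 12653 in KD 24 h. The groups overlapped, because KD replicates 3 and 4 lay above the lowest NC libraries. ND4 was at 2350, 2519 and 2997 in NC and at 1696, 1864 and 2258 in KD, so that all KD libraries were lower than all NC libraries. COX2 was at 7.64, 8.48 and 9.80 in NC and at 2.64, 5.30 and 6.79 in KD, also without overlap. The share of all entries whose groups do not overlap was not counted, so separation here and below does not set a member apart.

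Fold changes come from limma on the log2 of scaled RPKM + 0.1, and adjusted p-values from Benjamini-Hochberg over all 52005 entries tested, of which 11.6% were called lower and 11.1% higher. ND1 fell by 0.56 on the log2 scale (SE 0.190, limma adjusted p = 0.0444), to 67.6% of NC. ND4 fell by 0.47 (SE 0.119, adjusted p = 0.0124), to 72.2%. COX2 fell by 0.91 (SE 0.256, adjusted p = 0.0201), to 53.1%. Its few reads cannot be told by sequence from those of its nuclear copy. The COX2 call was lost with 1 entry per symbol, where another entry stood for it (-0.30, limma adjusted p = 0.369). It was also lost within the smaller cluster of libraries (-0.36, adjusted p = 0.394). ND2, ND6 and ATP6 did not pass, with log2 differences of -0.21 (SE 0.142, adjusted p = 0.296), -0.26 (SE 0.145, adjusted p = 0.207) and -0.57 (SE 0.337, adjusted p = 0.234). The median of the 8 log2 fold changes was -0.46, beside -0.01 over all entries tested. The call of ND1 ended in 10 of the 12 fits that left out 1 library (adjusted p 0.0535 to 0.1005 in these), all but those without KD replicate 3 or KD replicate 4, and also with the replicate number as a block (0.0733) and without the filter on low values (0.148). With KD replicate 6 left out, ND2 fell by 0.32 (limma adjusted p = 0.0421).

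ND5 and COX1 are described without a test. ND5 was at 272, 285 and 299 RPKM in NC 24 h and at 205, 254 and 411 in KD 24 h. The highest value was that of KD replicate 6, and the other 5 KD libraries lay at 205 to 265, below every NC library. COX1 was at 375, 460 and 496 in NC and at 323, 341 and 355 in KD, with no overlap. The fitted log2 difference was -0.17 (SE 0.122) for ND5 and -0.44 (SE 0.0920) for COX1. COX1 showed the least spread of the 8 members in KD 24 h, with a coefficient of variation of 4.06%, against 26.6% for ND5 and 27.6% for ND1.

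**Figure D2:**
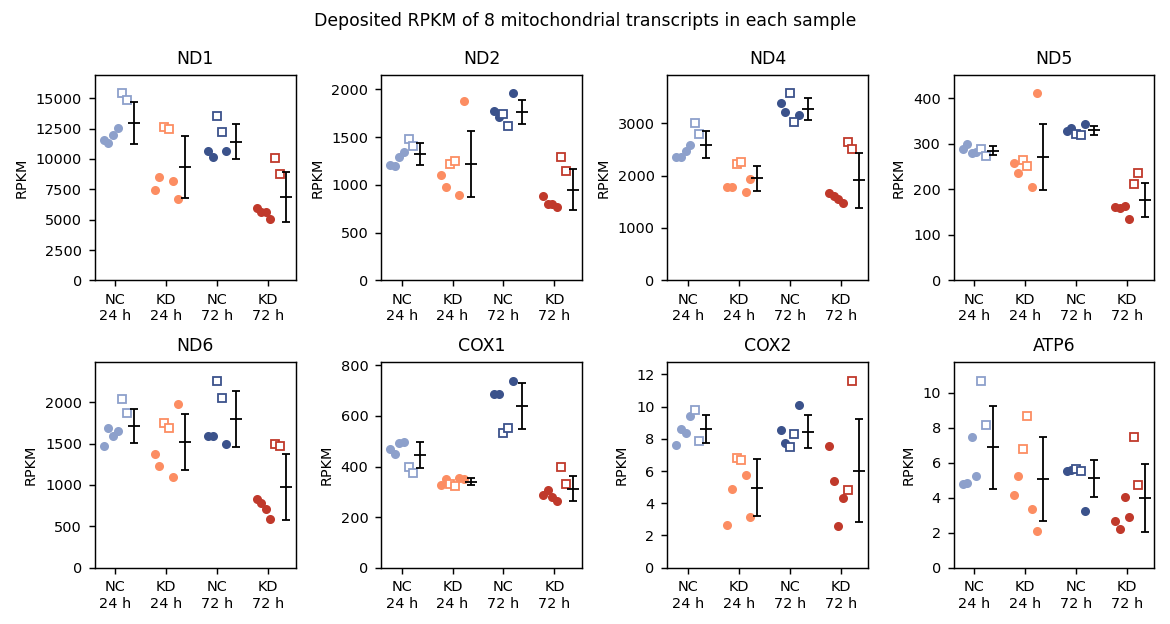
Deposited RPKM of the 8 members (1 panel each, linear axes from 0) in every sample of NC and KD at 24 h and 72 h. Filled circles are libraries of the larger cluster and open squares those of the smaller cluster, the NC 72 h pair averaged as 1 sample is 1 circle, and the black bar gives the mean ± SD (n = 6, for NC 72 h n = 5). At 72 h the KD samples of ND1, ND2, ND4, ND5, ND6 and COX1 lie below all NC samples.

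At 72 h the same comparison gave larger differences. Of the 6 tested members 5 fell, namely all 4 tested complex I subunits and COX2, while ATP6 missed the threshold. ND1 was at 10171, 10626 and 13524 RPKM in NC 72 h and at 5044, 5800 and 10099 in KD 72 h. ND2 was at 1616, 1738 and 1959 in NC and at 773, 842 and 1291 in KD. ND4 was at 3031, 3205 and 3572 in NC and at 1483, 1638 and 2644 in KD. No KD library of these 3 genes reached the lowest NC sample, although KD replicates 5 and 6 came closest in each. ND6, the member annotated on the other strand, was at 1500, 1589 and 2261 in NC and at 591, 800 and 1493 in KD, where the highest KD library stood just below the lowest NC sample.

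The fit covered 54447 entries, of which 12% were called lower and 10.3% higher. ND2 fell by 1.17 on the log2 scale (SE 0.112, limma adjusted p = 1.49e-05), to 44.5% of NC. ND4 fell by 1.06 (SE 0.127, adjusted p = 7.30e-05), ND1 by 1.03 (SE 0.149, adjusted p = 0.000323) and ND6 by 1.21 (SE 0.199, adjusted p = 0.00078). For these 4 complex I subunits KD thus stood at 43.3% to 49.0% of NC. COX2 was at 7.50, 8.28 and 10.1 RPKM in NC and at 2.56, 5.09 and 11.6 in KD. The groups overlapped through KD replicate 6, and COX2 fell by 0.87 (SE 0.273, adjusted p = 0.0346). This call ended without KD replicate 2, 3, 4 or 5 or NC replicate 1, 5 or 6 or the averaged NC pair (adjusted p 0.0552 to 0.0787), within the smaller cluster of libraries (adjusted p = 0.554), without the filter on low values (0.0654), on unscaled RPKM (adjusted p = 0.121) and by voom on reads (0.0557). ATP6 was at 3.22, 5.56 and 5.65 RPKM in NC and at 2.24, 3.47 and 7.48 in KD, a log2 difference of -0.68 (SE 0.272, adjusted p = 0.0891) that passed only without KD replicate 5 (adjusted p = 0.0189).

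ND5 and COX1 lay apart from NC in all libraries at 72 h. ND5 was at 319, 328 and 342 RPKM in NC and at 135, 161 and 235 in KD. COX1 was at 533, 685 and 740 in NC and at 265, 296 and 400 in KD. The fitted KD level was 44.5% of NC for ND5 and 40.9% for COX1, the latter the lowest of the 8 members. The median log2 fold change of the 8 members was -1.12, beside 0.01 over all entries tested.

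The size of these changes depended on the scaling between libraries. On deposited RPKM without scaling, the median entry was 0.25 higher on the log2 scale in KD than in NC at 72 h, and 3102 entries were called lower and 13166 higher, where scaling gave 6545 and 5613. All 8 members stayed lower in KD. Unscaled, the KD mean was 59.99% of the NC mean for ND1, 54.0% for ND2, 58.5% for ND4, 53.9% for ND5, 54.3% for ND6, 48.7% for COX1, 71.5% for COX2 and 78.4% for ATP6. At 24 h the median shift was 0.05.

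**Figure D3:**
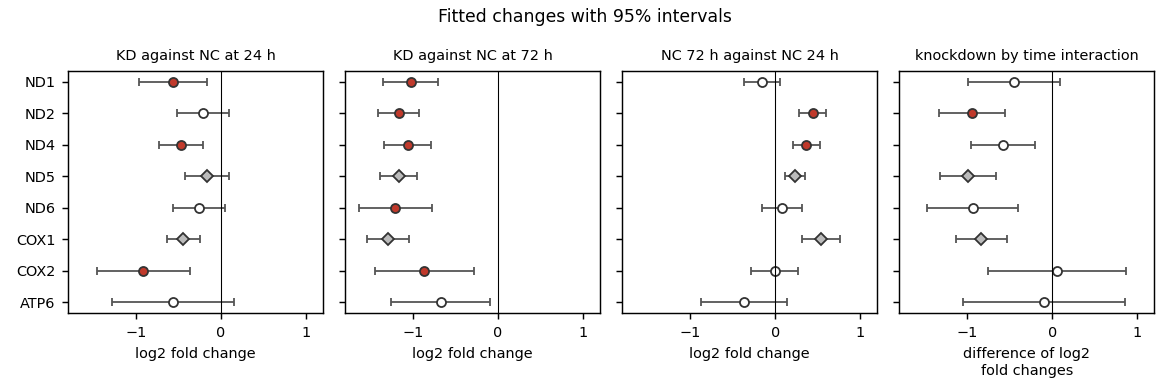
Fitted log2 fold change of each member with its 95% interval (limma) in KD against NC at 24 h and 72 h and in NC over time, and the difference of the 2 KD effects. Red circles passed adjusted p = 0.05, white circles did not, and grey diamonds (ND5 and COX1) were not tested. All 8 members lie left of 0 at 24 h and 72 h, between -1.29 and -0.68 at 72 h.

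Levels also moved with the clusters of libraries, and in opposite ways for different members. In NC 24 h, the libraries of the smaller cluster had the highest ND1 (15410 and 14876 RPKM) and ND6 (2041 and 1864) but the lowest COX1 (396 and 375). In KD 72 h, they had the highest ND1 (10099 and 8791) and ND6 (1493 and 1469) and also the highest COX1 (400 and 332). Within the larger cluster, all tested complex I subunits fell at 72 h, by 1.13 to 1.37 on the log2 scale (adjusted p at most 3.95e-06, n = 4 KD and n = 3 NC). Within the smaller cluster (n = 2 and 2) they fell by 0.68 to 0.87 (adjusted p at most 0.00548). For ND5 and COX1 the larger cluster gave -1.33 and -1.52 and the smaller -0.85 and -0.90. At 24 h, ND4 passed in both clusters (-0.55, adjusted p = 0.00275, and -0.35, adjusted p = 0.0195), as did ND1 (-0.74, adjusted p = 0.00393, and -0.26, adjusted p = 0.0218), while COX2 passed in the larger cluster (-1.21, adjusted p = 0.0128) and was at -0.36 (adjusted p = 0.394) in the smaller. The clusters were drawn from the deviations of these same libraries, which narrows the spread within a cluster. Adjusted p-values within clusters therefore tend to be too small, and they give no independent support to a call. The difference between the clusters was not tested.

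**Figure D4:**
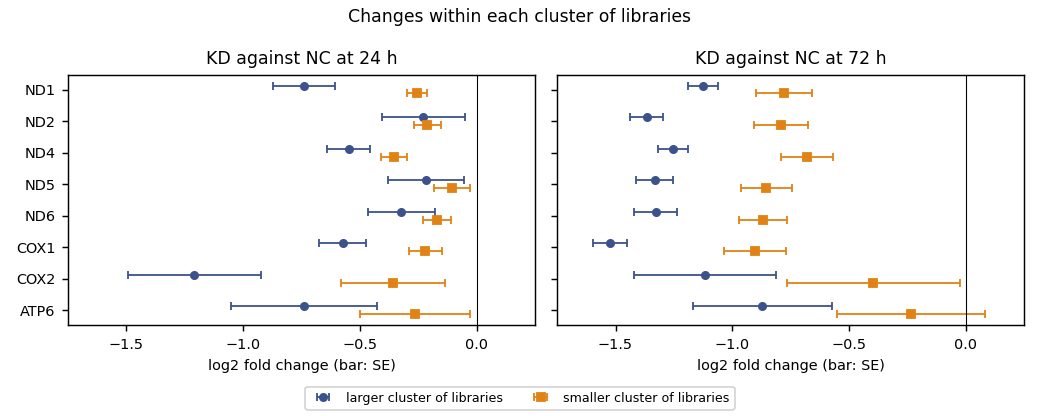
Log2 fold change of KD against NC (point) with its SE (bar) at 24 h and 72 h, fitted within the larger cluster (circles) and within the smaller cluster of libraries (squares). At 72 h the squares lie right of the circles for all 8 members, and both lie left of 0.

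Control cells over time gave a different set. From 24 h to 72 h in NC, 2 of the 6 tested members rose and none fell, beside 4.63% of 52835 entries called higher and 4.49% called lower. ND2 rose by 0.44 (SE 0.0743, limma adjusted p = 0.00164) and ND4 by 0.37 (SE 0.0753, adjusted p = 0.0065), and every NC 72 h sample was above every NC 24 h sample for both. ND1, ND6, COX2 and ATP6 did not pass, with log2 differences of -0.15 (SE 0.0997, adjusted p = 0.405), 0.08 (SE 0.112, adjusted p = 0.733), -0.01 (SE 0.130, adjusted p = 0.984) and -0.36 (SE 0.236, adjusted p = 0.401). COX1 was 0.54 (SE 0.103) and ND5 0.23 (SE 0.0557) higher at 72 h, without overlap between the times. With the replicate number as a block, the call of ND4 ended (adjusted p = 0.0604). Within the smaller cluster neither call held, with ND2 at 0.20 (adjusted p = 0.217) and ND4 at 0.17 (adjusted p = 0.353). Within the larger cluster ND2 was at 0.57 (adjusted p = 0.000266) and ND4 at 0.46 (adjusted p = 0.000265), with the limit on such p-values given above. In KD cells, whose change over time was not fitted, the mean at 72 h was 65.5% of that at 24 h for ND5, 64.5% for ND6, 73.6% for ND1, 77.9% for ND2, 79.2% for ATP6, 91.6% for COX1, 98.2% for ND4 and 121% for COX2 on deposited RPKM, with overlapping libraries in each. Unlike the fits above, these means are unscaled. The scaling factors, which divide RPKM, were 0.925 to 1.11 in KD 24 h and 1.03 to 1.23 in KD 72 h. Scaling would thus lower KD 72 h relative to KD 24 h for every member.

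The difference of the KD effect between 72 h and 24 h was tested itself, with all 4 groups in 1 fit. Of the 6 tested members only ND2 passed (-0.94, SE 0.190, limma adjusted p = 0.0352), while 0.0741% of 59412 entries were called lower and 0.126% higher. ND6 was at -0.93 (SE 0.260, adjusted p = 0.135), ND4 at -0.58 (SE 0.182, adjusted p = 0.186) and ND1 at -0.45 (SE 0.262, adjusted p = 0.517). COX2 and ATP6 were at 0.06 (SE 0.391) and -0.10 (SE 0.463), with 95% intervals from -0.75 to 0.86 and from -1.05 to 0.86. ND5 was at -0.99 (SE 0.159) and COX1 at -0.84 (SE 0.146). The difference of ND5 was known when it was proposed, and deviations of ND2 and ND5 correlated (Pearson's r = 0.89). The test of ND2 is therefore not independent of that choice. The call of ND2 ended with the replicate number as a block (adjusted p = 0.0570), without the filter on low values (0.0533) and on unscaled RPKM (adjusted p = 0.0678), where 30 entries were called lower and 744 higher against 44 and 75 with scaling. It also ended without KD 24 h replicate 3, NC 24 h replicate 1, 2, 3 or 4, KD 72 h replicate 1, 2, 3 or 4, or NC 72 h replicate 1 or 6 or the averaged NC 72 h pair (adjusted p 0.0545 to 0.0750). The call of ND2 held within the larger cluster (-1.14, adjusted p = 0.0137) and the smaller cluster (-0.58, adjusted p = 0.0331). ND6 passed in both as well (-1.01, adjusted p = 0.0106, and -0.70, adjusted p = 0.00551), and ND4 passed in the larger cluster (-0.71, adjusted p = 0.00313).

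The members' deviations from their group means rose and fell together for some pairs, which share library, depth and cluster. Over 23 samples Pearson's r was 0.89 for ND2 and ND5, 0.88 for ND4 and ND6, 0.87 for ND1 and ND4, 0.79 for ND2 and ND6, and 0.83 for ND1 and ATP6. ND6 is annotated on the strand opposite to ND2 and ND4. Its reads could not be told from those of RNA antisense to it, so variation across strands cannot be read from these values. COX1 and COX2 varied less with the rest, with r from -0.03 to 0.40 for COX1 and from 0.07 to 0.54 for COX2 against the other members. ND1 and ND5, both on the plus strand, had r = 0.20.

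Other entries with the same symbols were close to the main ones for COX1, ND5 and ND6 in the comparisons of KD and NC, and spread more widely for COX2 and COX3. The 10 further COX1 entries had log2 fold changes of -0.48 to -0.40 at 24 h and -1.33 to -1.26 at 72 h. For ND5, 9 further entries gave -0.24 to -0.16 and -1.19 to -1.11, and for ND6 both further entries gave -0.23 to -0.22 and -1.20 to -1.19. These entries share reads with the main ones and are not independent. Not all entries listed as ND5 lie within the annotated ND5 transcript, since AK159184, with 574 bases, held a mean of 3551 reads and the ND5 transcript itself 1960. For COX2, the second of 2 listings of AK131586 matched the main entry within 1 read in 24 of 24 libraries, and the first gave -0.29 at 24 h and -1.05 at 72 h. When the table was reduced to 1 entry per symbol, this first listing stood for COX2 and the call at 24 h was lost (-0.30, limma adjusted p = 0.369), while that at 72 h held (-1.03). In the same fit the second listing of AK131579, which is 784 bases long as is the annotated COX3 transcript, stood for COX3, the third core subunit of complex IV, at a mean of 6.40 RPKM. It fell by 0.98 at both 24 h (adjusted p = 0.00473) and 72 h (adjusted p = 0.00551). The first listing of AK131579, of the same length, had fitted log2 differences of -0.33 (SE 0.161) at 24 h and -1.18 (SE 0.296) at 72 h in the fit over all entries, so the change at 24 h again depended on the listing. Over the 6 other COX3 entries the log2 differences ranged from -0.97 to -0.10 at 24 h and from -1.20 to -0.63 at 72 h.

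Of the partner subunits that nuclear genes add to these complexes, 7 of 39 tested fell at 24 h and 26 of 39 at 72 h, and none rose at either time, where 11.6% and 12% of all entries tested were called lower. At 72 h the counts were 4 of 7 core subunits of complex I, 6 of 9 of complex III, 11 of 12 of complex IV and 5 of 11 of complex V. The median log2 fold change at 72 h was -0.56 in complex I, where the 5 mitochondrial members lay between -1.21 and -1.03. Lowest by p at 72 h were Cox8b (-1.88, SE 0.231, limma adjusted p = 9.66e-05) and Cox7a1 (-1.47, SE 0.197, adjusted p = 0.000188), complex IV isoforms typical of brown and brite fat and muscle, with Ndufs8 (-0.60, SE 0.0799, adjusted p = 0.000176), an iron-sulfur subunit of complex I, and Cox7b (-0.61, SE 0.0827, adjusted p = 0.000194). At 24 h they were Uqcrq (-0.26, adjusted p = 0.0234), Ndufs7 (-0.35, adjusted p = 0.0253), Ndufs8 (-0.53, adjusted p = 0.0270) and Cox4i1 (-0.27, adjusted p = 0.0306). In NC over time, 4 of 39 rose and 6 fell, where 4.63% of all entries were called higher and 4.49% lower. Lowest by p were Cox8b (1.33, limma adjusted p = 0.000182), then Atp5f1a (-0.34, adjusted p = 0.00186), Atp5mc3 (-0.33, adjusted p = 0.00525) and Atp5pb (-0.24, adjusted p = 0.00802). The change of the KD effect with time passed for 1 of 39, Cox7c (-0.76, adjusted p = 0.0181), and not for Cox7b (-0.50, adjusted p = 0.0783), Uqcrq (-0.45, adjusted p = 0.140) or Cox8b (-1.33, adjusted p = 0.158).

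**Figure D5:**
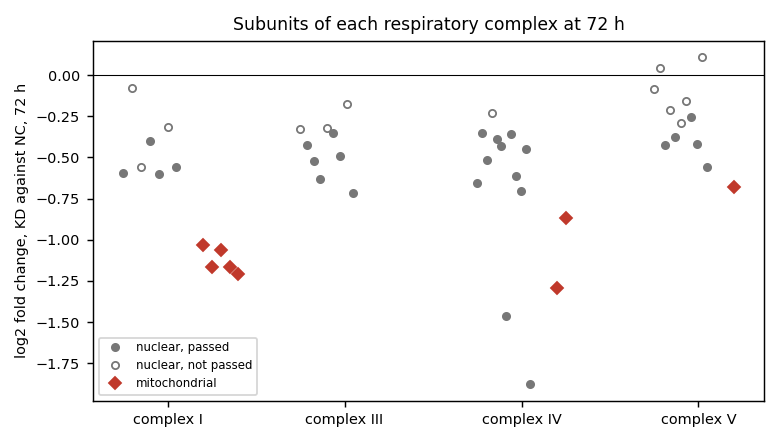
Log2 fold change of KD against NC at 72 h for nuclear subunits (circles, filled where adjusted p was under 0.05) and mitochondrial members (red diamonds) of complexes I, III, IV and V. In complex I all 5 mitochondrial members lie below every nuclear core subunit, and in complex IV Cox8b (-1.88) and Cox7a1 (-1.47) lie below COX1 (-1.29). No mitochondrial member of complex III is plotted.

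Nuclear genes that transcribe, process or replicate mitochondrial DNA were called in both directions. Of 38 listed, 36 were tested at 24 h, where 4 rose and 5 fell, and 35 at 72 h, where 2 rose and 4 fell. Of all entries tested, 11.1% were called higher and 11.6% lower at 24 h, and 10.3% and 12% at 72 h. The counts thus do not set the list apart from other entries. The list medians were -0.15 and -0.14. Mterf4, a factor of mitochondrial ribosome assembly, fell at both times (-1.16, adjusted p = 0.00226, and -1.13, adjusted p = 0.000772). Twnk, the mitochondrial DNA helicase, rose at both (0.67, adjusted p = 0.0125, and 0.77, adjusted p = 0.00886). At 24 h Gabpa (-0.84, adjusted p = 0.00635), a transcription factor of respiratory genes, and Fastk (-0.54, adjusted p = 0.00902), needed for ND6 RNA, also fell. At 72 h Ppargc1a (-1.35, SE 0.249, adjusted p = 0.00173), the coactivator PGC-1α, and Lrpprc (-0.82, adjusted p = 0.0169), which stabilizes mitochondrial mRNAs, fell. In NC over time 3 of 35 fell and none rose, where 4.49% of all entries were called lower and 4.63% higher. The 3 were Pnpt1 (-1.36, limma adjusted p = 0.000585), an RNA-degrading enzyme, Ppargc1a (-0.53, adjusted p = 0.0297) and Ppargc1b (-0.70, adjusted p = 0.0494). Tbrg4 missed the threshold (-0.42, adjusted p = 0.0841). By limma no gene of this list passed for the change of the KD effect with time (2 of 36 at an unadjusted p under 0.05), the lowest p-values being those of Gabpa (0.63, adjusted p = 0.283), Grsf1 (-0.63, adjusted p = 0.399), Trmt10c (-0.50, adjusted p = 0.451) and Fastkd2 (0.49, adjusted p = 0.493).

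Markers of the cells' state moved beside the members. Of all entries tested, 11.6% were called lower and 11.1% higher at 24 h, and 12% and 10.3% at 72 h. The 4 brite markers, Ucp1, Cidea, Elovl3 and Cox7a1 (which is also a partner subunit above), all fell in KD at both times, and their summed RPKM ranged from 1369 to 2201 in NC and from 482 to 963 in KD at 72 h. Of 6 adipocyte markers 4 fell at 24 h and 2 at 72 h, with sums of 31999 to 41770 in NC and 25213 to 37865 in KD at 72 h. Of 5 stromal markers 4 were tested, none passed at 24 h, and at 72 h only Cd34 rose (2.29, adjusted p = 0.00443, mean over all libraries 1.08 RPKM), with sums of 359 to 940 in NC and 788 to 944 in KD. Of 5 macrophage markers 3 were tested, of which Csf1r and Cd68 rose at both times while Lyz2 fell at 72 h (-3.94, adjusted p = 0.000596), with sums of 38.9 to 122 in NC and 31.8 to 40.6 in KD at 72 h. The 3 smooth muscle and pericyte markers summed to at most 7.58 RPKM, and no marker of any list was at 0 in all samples of a group. In bulk RNA a smaller share of brite cells and less mitochondrial RNA per cell cannot be told apart, and the part of cell composition in the members' fall was not tested.

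The genes whose pattern was most like that of the members were found by Pearson's r with the mean log2 scaled RPKM of the 8 members over 23 samples, among 11571 genes. The highest were Ndufb5 (r = 0.95), an accessory subunit of complex I, Adhfe1 (r = 0.94), a mitochondrial dehydrogenase, and Lyz2 (r = 0.94), the lysozyme of macrophages. With the mean of the 6 members other than COX2 and ATP6, whose reads were few, r was 0.92 for Ndufb5, 0.94 for Adhfe1 and 0.88 for Lyz2. These values are descriptions across samples that share groups, libraries and clusters.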

How the data were processed

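The deposited file was a single table of RPKM values for 168326 transcript entries in 24 libraries, written by the authors with a decimal comma. According to the study's methods, barcoded 3′ cDNA libraries (BRB-seq) were sequenced and tags were aligned to NCBI RefSeq sequences in the Genomatix suite. Its version, the genome build and the strand handling are not given in the sources used here. Entries are redundant, and several may describe 1 gene.

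From the deposited RPKM, reads were recovered because low values are whole multiples of the worth of 1 read. This gave library totals, transcript lengths for 108654 entries (of 25100 that also have a GENCODE M21 length, 89.9% were equal) and whole reads within 0.03 for 93.5% to 94.1% of low values (at most 20 reads) per library. Values of NC 72 h replicate 6 fell on steps that imply a total of 5926375, but only 20.1% of its low values were odd reads, against 56.5% to 59.0% in the other libraries, so its depth is less certain than that of the others.

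RPKM were scaled by a trimmed mean of log ratios (30% of ratios and 5% of means trimmed), 0.1 was added, and log2 values were fitted with limma 3.58.1 (lmFit, eBayes with trend) in R 4.3.3, for the 2 groups compared, or all 4 for the difference of KD effects. Tested were entries that reached the equivalent of 10 reads in at least a number of samples equal to the size of the smaller group and 15 reads in total (0.5 RPKM replaced 10 reads where no length was recovered), and all 8 members passed in all 4 comparisons. Tests were two-sided, with adjusted p-values by the Benjamini-Hochberg method over all entries and a threshold of 0.05. A count test was not the main test, since the files hold no counts. The scripts were tested on simulated data. The members, the gene lists and the tests were chosen with earlier results of these data known. Named from the lists were the 4 genes with the lowest p-values per comparison, each by its entry with the highest mean RPKM, and the 5 genes most correlated with the members, of which 2 are not reported here. Further genes named as cell markers are those of the marker lists.

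Alternatives were other scalings (none, median of ratios, without mitochondrial entries), a pseudocount of 1, no filter, 1 entry per symbol, voom on recovered reads, the replicate number as a block, the near-identical NC 72 h pair kept separate, each library left out, each cluster of libraries alone, and other entries of a symbol. Sequences and positions are from GENCODE M21 (GRCm38), and all 8 members' lengths in the table equalled it. Clusters came from average-linkage clustering of correlations between libraries.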

Additional observations from a re-analysis of the deposited data

Results flagged for a closer look

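In 3 of 32 groups of samples a single library stood apart from the rest by Dixon's criterion at 95%, where chance gives about 1 in 20. KD 24 h replicate 6, the shallowest library, was highest for ND2 (1874 RPKM, next 1251) and for ND5 (411 RPKM, next 265). Without it the fitted log2 difference of KD and NC at 24 h was -0.32 for ND2 and -0.27 for ND5. NC 72 h replicate 6 was lowest for ATP6 (3.22 RPKM, next 5.54), on 13 reads. The effect of KD on ND2 differed between 72 h and 24 h by -0.94 on the log2 scale (limma adjusted p = 0.0352), a test not independent of the earlier choice of ND5.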

How the results depend on the processing

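Among the alternatives that changed the values of single members, those of ND2, ND4 and ND6 at 72 h kept direction and call throughout, and so did ND1. At 24 h, 2 to 3 members were called lower when 1 library was left out, and at 72 h 4 to 5. The 2 calls in NC over time became 1 with the replicate number as a block (ND4, adjusted p = 0.0604) and 0 in the smaller cluster. For the difference of KD effects, the count of 1 became 0 on unscaled RPKM, without a filter and with the block (ND2, adjusted p = 0.0570), 3 in the larger cluster and 2 in the smaller, and ranged from 0 to 1 when 1 library was left out. The counts within clusters rest on p-values that tend to be too small. With the block, ND1 at 24 h also lost its call (adjusted p = 0.0733), as it did without a filter (0.148). Same-numbered libraries shared only a number: their deviations correlated at -0.094, 0.041 and 0.042 on average for KD and NC at 24 h, at 72 h and NC over time, and 1, 2 and 2 of 6 libraries correlated best with their own number.

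Signs turned only for values near 0 or with few reads. COX2 in NC over time became 0.10 with 1 entry per symbol, 0.087 in the larger cluster and 0.12 on the other listing of AK131586, and ranged from -0.084 to 0.042 when 1 library was left out. The COX2 difference of effects became -0.71, -0.024 (voom), -0.041 (smaller cluster) and -0.74 (other listing), with -0.13 to 0.25 on leaving 1 out. That of ATP6 became 0.082 without scaling, 0.012 with 1 entry per symbol and 0.027 in the smaller cluster, with -0.34 to 0.11. The ND5 entry AK018737, with a mean of 6.5 reads, was at 0.41 for the difference of effects. The causes were not tested.

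Counts over all entries moved by over 1.5 times in the smaller cluster (831 lower and 719 higher at 24 h, 3830 and 1925 at 72 h, 930 and 815 in NC over time), with the block in NC over time (1424 and 1475), and at 72 h (4627 and 3586), without the averaged pair in NC over time (2071 and 1612), on unscaled RPKM at 72 h (3102 and 13166) and for the difference of effects (30 and 744), with 1 entry per symbol, where fewer entries were tested (1233 and 1163 at 24 h, 1436 and 1227 at 72 h, 541 and 523 in NC over time, 14 and 36 for the difference), and for the difference of effects with the pair kept separate (62 and 120), pseudocount 1 (61 and 183), the block (7 and 21), the larger cluster (472 and 388), the smaller (1588 and 239) and 1 library left out (28 to 83 and 25 to 103). The voom fit on recovered reads called 6674 lower and 5921 higher at 24 h, 6999 and 5862 at 72 h, 2728 and 2846 in NC over time and 46 and 102 for the difference. At a few reads per library, COX2 and ATP6 allow no statement on small changes.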
